A study of Mus musculus with 8 samples.

Results

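The 10 cathepsin genes Ctsa, Ctsb, Ctsc, Ctsd, Ctsh, Ctsk, Ctsl, Ctso, Ctss and Ctsz were examined in RNA sequencing of mouse microvascular cells, as 10 of the 22520 genes in the deposited table. They were taken by gene symbol, and each symbol matched 1 row. The cells came from C57BL/6 mice at postnatal day 14 and were labelled as a mixture from heart, liver and lung, with 4 libraries labelled LRP1 KO and 4 labelled Wildtype (WT). The study itself describes RNA sequencing of liver cells and of heart and lung cells separately, which does not match the labelled mixture, so its genotypes and selection are carried over here with that reservation. According to its methods both groups carried floxed Lrp1 alleles (LRP1 f/f). Only the knockout mice carried the inducible Cre recombinase Cdh5-CreER, which is driven by the promoter of the endothelial cadherin gene Cdh5, and the WT mice were littermates without it. Beads carrying an antibody to PECAM-1 had been used to select the cells. When and how the Cre recombinase was induced in these mice is not given in the sources used here. Nor do the sources say whether each library came from 1 mouse or from several, so p-values measure the spread between these libraries.

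Cathepsins are proteases of the lysosome. They are made as inactive precursors, receive a mannose 6-phosphate tag in the Golgi, are carried to the lysosome by mannose 6-phosphate receptors and become active in its acid interior. Most are cysteine proteases of the papain family, while cathepsin D is an aspartic protease and cathepsin A a serine carboxypeptidase. Cathepsins B, D and L are found in nearly every cell. Cathepsin S is made mainly by macrophages and other antigen-presenting cells, stays active at neutral pH and cuts the invariant chain from MHC class II molecules, and cathepsin K degrades collagen in osteoclasts and fibroblasts.

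Ctss and Ctsk are direct neighbours in the genome. In GENCODE M21 (GRCm38), Ctsk (ENSMUSG00000028111) lies on the plus strand at chr3:95499256-95509362 and Ctss (ENSMUSG00000038642) on the same strand at chr3:95526786-95556403, with 17423 bases and no other annotated gene between them. The stretches of 250 bases before their RefSeq start sites (GRCm38.p6, plus strand, chr3:95526536-95526785 for Ctss and chr3:95498960-95499209 for Ctsk) are shown because these adjacent genes had different values in the comparison below. Neither stretch overlaps an annotated exon. Of the other cathepsins, Ctsd (chr7:142375911-142388038), Ctsl (chr13:64359337-64370890) and Ctsz (chr2:174427493-174439039) lie on the minus strand, and Ctsa, Ctsb (chr14:63122462-63145923), Ctsc (chr7:88278085-88310888), Ctsh (chr9:90054152-90076089) and Ctso (chr3:81932601-81956725) on the plus strand. Capitals mark letters searched for on both strands, which were CACGTG (the E-box core), TCACGTGA (the E-box palindrome of the CLEAR element bound by the lysosomal regulator TFEB, which contains the core), GAGGAAGT (bound by PU.1), GAAA followed after any 2 bases by GAAA (as in interferon-stimulated response elements), TATAAA and CCAAT.
Ctss: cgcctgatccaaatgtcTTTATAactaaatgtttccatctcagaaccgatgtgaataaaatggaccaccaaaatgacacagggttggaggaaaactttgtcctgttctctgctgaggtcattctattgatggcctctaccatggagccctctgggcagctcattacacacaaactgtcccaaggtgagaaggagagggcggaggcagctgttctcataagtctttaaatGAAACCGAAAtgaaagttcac
Ctsk: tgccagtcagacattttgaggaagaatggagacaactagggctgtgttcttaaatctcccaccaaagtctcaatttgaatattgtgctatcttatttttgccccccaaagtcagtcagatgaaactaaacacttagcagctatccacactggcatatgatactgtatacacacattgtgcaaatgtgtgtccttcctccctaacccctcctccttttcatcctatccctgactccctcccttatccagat
The Ctss stretch held the spaced GAAA repeat, with its first base 21 bases before the start, and TATAAA on the opposite strand 233 bases before it. In the Ctsk stretch none of the 6 letter strings was found.

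The E-box palindrome TCACGTGA was found in 2 of the 9 cathepsin windows, against 0.785% of all 32851 windows of the same length. RefSeq windows were found for 8 of the 10 genes, and those of Ctsb and Ctsh were not analysed here. One palindrome lay 99 bases before the Ctsd start, within chr7:142387908-142387937 on the minus strand, and the other 13 bases before one of the 2 Ctsa starts, within chr2:164833743-164833772 on the plus strand. All 30 bases of both sites lie in annotated exons of GENCODE M21, inside the gene spans given here. They are shown as 30 bases each with the palindrome in capitals, because Ctsd and Ctsa are among the most abundant cathepsins and had opposite signs in the comparison.
Ctsd: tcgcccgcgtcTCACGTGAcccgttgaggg
Ctsa: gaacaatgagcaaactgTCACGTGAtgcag
The core CACGTG, counted within the palindrome too, was in the windows of Ctsa, Ctsd and Ctsl (6.02% of all windows), GAGGAAGT in that of Ctsc (2.44%), the spaced GAAA repeat in that of Ctss (2.98%), TATAAA in that of Ctss (12.4%) and CCAAT in those of Ctso and Ctsz (33.8%). These are matches of letters only and do not show that a factor binds there.

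Expression was read as FPKM, a unit inferred from the tools named by the submitters, a fragment count divided by transcript length and by the mapped fragments of the library, whose sorted values were nearly the same in all 8 libraries, as after quantile normalization. The sequencing depth is therefore unknown and the precision is judged from the spread between libraries alone. The targeted gene was low in the knockout, with Lrp1 at 103 to 140 FPKM in WT and 2.79 to 7.72 FPKM in LRP1 KO. LRP1 KO library 4 stood apart, since it lay between the groups on the first principal component (60.8% of the variance), with a score of 0.102. The remaining LRP1 KO libraries scored 17.2 to 27.3 and the WT libraries -24.1 to -12.9. The labelled cell type was checked with markers. The 20 endothelial genes examined summed to 186 to 209 FPKM (WT) and to 673, 419, 501 and 191 FPKM (LRP1 KO, in replicate order), with 1 of 17 tested genes higher by limma (11 at an unadjusted p under 0.05, and 17 with positive estimates). Over all 11389 tested genes 13.6% passed, 6.27% higher and 7.31% lower. The 12 fibroblast genes summed to 2957 to 4198 and 2669 to 3898 FPKM in the groups, with 1 gene higher and 3 lower. The defining endothelial markers were thus present but low beside those of fibroblasts, with Col1a1 at 395 to 565 FPKM and Pecam1 at 6.80 to 8.76 FPKM in WT. The summed level of 20 macrophage genes, none of them a cathepsin, was 90.5 to 116 FPKM (WT) and 391, 575, 235 and 524 FPKM (LRP1 KO, in replicate order). Lrp1 was thus at 3.99% of WT in libraries in which fibroblast genes outweighed endothelial ones, and in which cells it was lost was not tested. Of 7 tested mural cell genes 3 rose (6 at an unadjusted p under 0.05), and of 2 tested lung epithelial genes 1 fell. Hepatocyte genes were at most 1.28 FPKM, and of 2 tested cardiomyocyte genes 0 passed by limma (1 at an unadjusted p under 0.05). In such bulk libraries more cells of a type and more RNA per cell cannot be told apart.

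Cathepsin transcripts were abundant. In WT, Ctsl (984 ± 158 FPKM) and Ctsd (981 ± 94.8 FPKM) stood highest, with 56 and 57 of the 11389 tested genes above them. Next came Ctsa (436 ± 47.1), Ctsz (301 ± 22.3), Ctsb (297 ± 30.6), Ctsk (81.0 ± 11.1), Ctsc (76.0 ± 17.1), Ctsh (33.0 ± 1.30) and Ctso (16.2 ± 0.977). Ctss was the lowest at 5.98 ± 1.35 FPKM (SD, n = 4 for each gene). Between neighbours in this order the libraries overlapped for Ctsl and Ctsd, for Ctsz and Ctsb and for Ctsk and Ctsc, while the other 6 steps were larger than the spread. In LRP1 KO the order began with Ctsd, Ctsl and Ctsb, though the values of Ctsb overlapped those of Ctsa below it. Ctss stood at rank 8, where its values overlapped those of Ctsk above and Ctsh below.

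**Figure D1:**
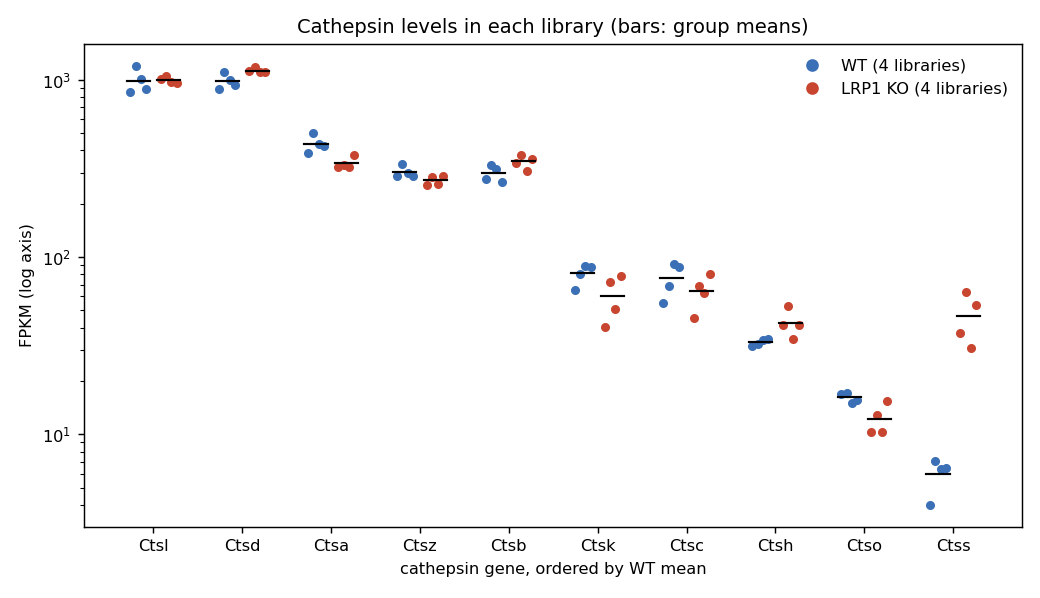
FPKM (log axis) of the 10 cathepsin genes, ordered by their WT mean, with 1 point per library (4 WT in blue, 4 LRP1 KO in red) and a bar at each group mean. Ctss is the lowest gene in WT, at 4.002 to 7.06 FPKM, and lies at 30.7 to 63.9 FPKM in LRP1 KO, while the group means of the other 9 genes differ far less.

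The comparison of LRP1 KO with WT asked which cathepsins differ between the libraries labelled LRP1 KO and WT. Of the 10 cathepsins, 1 rose (Ctss) and 1 fell (Ctsa) by limma, with p-values adjusted over the whole table and a threshold of 0.05, where 13.6% of the 11389 tested genes passed, 6.27% higher and 7.31% lower. Ctss alone also changed by 2-fold or more, as 1.62% of all genes did. The share of 2 in 10 is thus near the background and is no result about the family. Estimates were positive for 5 genes and negative for 5, and their median on the log2(FPKM + 1) scale was -0.06, against -0.01 over all genes tested. Apart from Ctss, the estimates lay between -0.45 and 0.34. All 10 genes passed the filter on low values. The groups did not overlap for Ctss, Ctsh and Ctsa, or 3 of 10, where 19.6% of all tested genes showed no overlap (8.84% with LRP1 KO higher and 10.7% with it lower). The summed level of the 10 genes came to 3212 ± 355 FPKM (WT) and 3310 ± 153 FPKM (LRP1 KO; SD, n = 4 each).

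**Figure D2:**
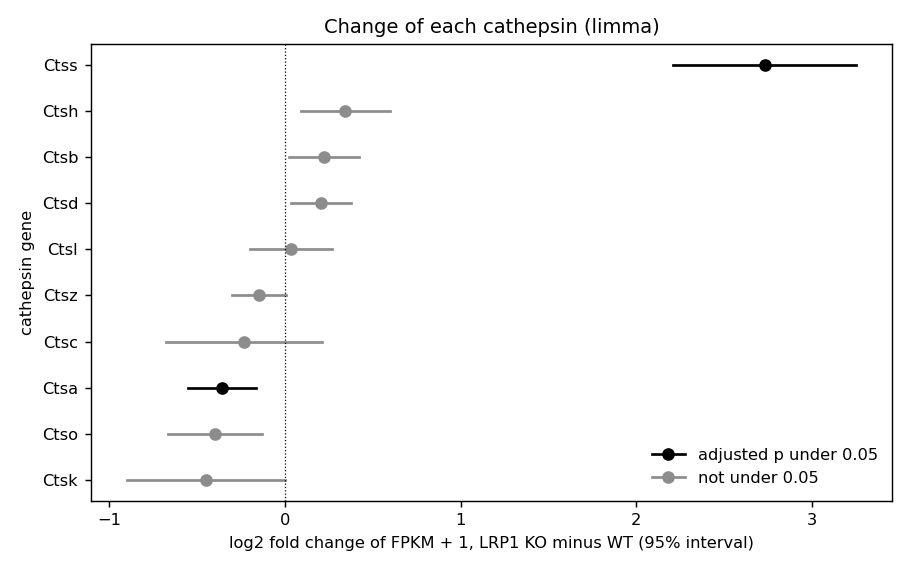
Log2 fold change of FPKM + 1, LRP1 KO minus WT, with its 95% interval from limma for each cathepsin, in black where the adjusted p-value was under 0.05 and in grey otherwise. Ctss stands alone at 2.73, and the other 9 estimates lie between -0.45 and 0.34.

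In replicate order, the WT libraries gave Ctss levels of 4.002, 7.06, 6.39 and 6.48 FPKM, and the LRP1 KO libraries gave 37.5, 63.9, 30.7 and 53.9 FPKM. The groups were fully separate, and even LRP1 KO library 3 stood 4.34 times above WT library 2, the highest of its group. The mean rose from 5.98 ± 1.35 to 46.5 ± 15.2 FPKM (SD, n = 4 each), a ratio of 7.77. On the log2(FPKM + 1) scale the rise was 2.73 (95% interval 2.21 to 3.25, limma adjusted p 0.000449), the fifth of all tested genes by absolute size. Ctss thereby went from 0.185% to 1.39% of the summed cathepsin level. Leaving out 1 library at a time gave rises from 2.56 to 2.91, and without LRP1 KO library 4 the rise was 2.64. With the mean level of the macrophage genes as a covariate the estimate was 1.16 and did not pass (adjusted p 0.0897; its alternatives gave 0.000405 to 0.0897). That mean was 1.75 to 2.27 log2 units in WT and 3.10 to 4.25 in LRP1 KO without overlap, so the covariate and the genotype cannot be told apart.

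To set Ctss against the more abundant cathepsins, its log2 difference to each of the other 9 was taken within each library. In every one of the 9 comparisons the 4 LRP1 KO values lay above the 4 WT values. The shift ran from 2.39 against Ctsh to 3.18 against Ctsk (exact two-sided permutation test, p = 0.0286 for each and 0.0286 after Benjamini-Hochberg adjustment over the 9, the smallest value that 4 libraries against 4 allow). These 9 comparisons share the Ctss values and are not independent. Ctss rose by more than any other cathepsin varied, so their separation follows from the rise given above and is no further support. Against Ctsk, its genomic neighbour, Ctss stood at -3.57 ± 0.167 log2 units in WT and at -0.38 ± 0.294 in LRP1 KO (SD, n = 4 each). Against Ctso the sign changed, from -1.32 ± 0.348 in WT to 1.81 ± 0.308 in LRP1 KO (SD, n = 4 each).

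**Figure D3:**
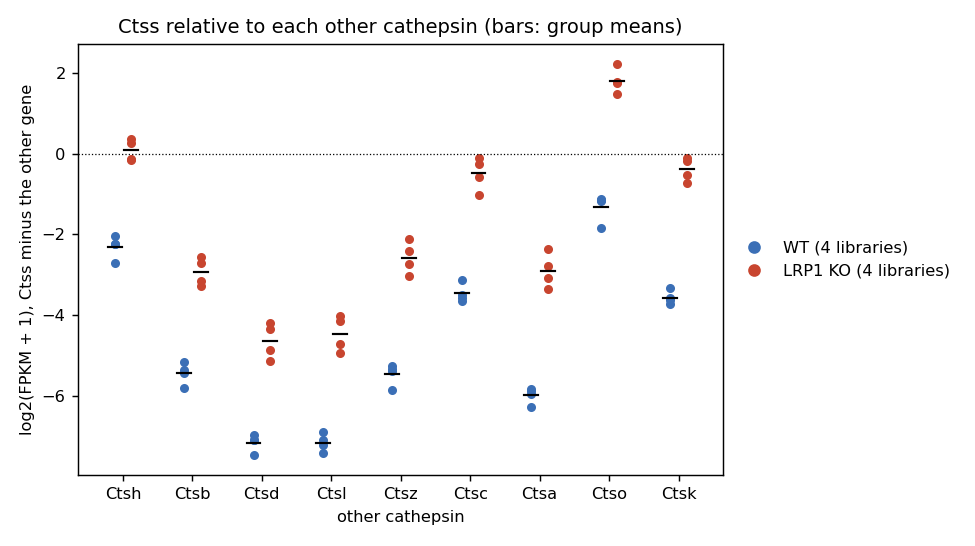
Log2(FPKM + 1) of Ctss minus that of each other cathepsin, with 1 point per library (4 WT in blue, 4 LRP1 KO in red) and a bar at each group mean. In all 9 columns the LRP1 KO points lie above the WT points, by 2.39 to 3.18 on average.

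Ctss was then set beside macrophage genes. Of the 22 genes on that list, 20 were in the table and 13 were tested, of which 11 rose, 0 fell (1 at an unadjusted p under 0.05) and 2 did not pass by limma, where 6.27% of all tested genes were higher. Of the 11, Mrc1 and Ms4a7 were under 1 FPKM in every WT library, so they passed the filter on low values only through LRP1 KO and could only be called higher. Of the remaining 11 tested genes, 9 rose. Cd14, an endotoxin co-receptor that other cells also make, did not pass (estimate -0.47, limma adjusted p 0.136). C1qa, a chain of complement C1q, did not pass either (estimate 1.48, limma adjusted p 0.105), and its LRP1 KO libraries read 2.47, 11.2, 1.08 and 12.1 FPKM. Of the markers of Kupffer cells, the macrophages of the liver, Clec4f was at most 0.0152 FPKM and Timd4 at most 0.00400 FPKM in any library. Vsig4, also on the list and not tested, was at most 0.115 FPKM in WT. Its LRP1 KO libraries read 0.00811, 0.256, 0.00789 and 0.278 FPKM. Marco, a scavenger receptor of alveolar and other macrophages, reached 1 FPKM in 3 libraries only and was not tested. Its LRP1 KO libraries read 7.84, 5.53, 0.636 and 11.8 FPKM.

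Across the 4 LRP1 KO libraries, Ctss followed the order of the summed macrophage genes, with library 2 highest, then 4, 1 and 3. The share of all tested genes with that order was not determined, so no link is read from it. The 5 tested genes with the smallest root mean square difference from Ctss over the 8 libraries, after each gene's own mean was subtracted, were Mpeg1 (0.161 log2 units), C1qb (0.197), Tyrobp (0.206), Fcer1g (0.225) and Lyz2 (0.238). Mpeg1 encodes the pore-forming perforin-2, C1qb a chain of complement C1q, Tyrobp and Fcer1g signaling adaptors of immune receptors and Lyz2 lysozyme. Except for Mpeg1, they are members of the macrophage list. The cathepsin closest to Ctss was Ctsh (1.22), at rank 534 of all genes, and the most distant was its neighbour Ctsk (1.604), at rank 10631. The part of the macrophage genes in the rise of Ctss was not tested beyond the covariate above.

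Relative to the 13 tested macrophage genes one by one, the shift of Ctss between the groups ran from -0.01 against C1qb to 3.20 against Cd14. After adjustment over the 13, 0 passed by the exact permutation test (smallest adjusted p = 0.0619), and 6 had an unadjusted p of 0.0286, among them Csf1r, Cd68, Mrc1, Cd14 and Ms4a7. That is the smallest p this test can give, so with 6 of the 13 at it none could pass. The count of 0 is therefore no sign that Ctss moved like these genes. For those 6 the groups did not overlap on the log2(FPKM + 1) scale, with Ctss shifted further up than the marker. For Mrc1 and Ms4a7 this rested on the added 1, since with a pseudocount of 0.1 the shifts of 1.07 and 1.33 became 0.0322 and 0.0588. Their mean FPKM was 9.22 and 10.7 times that of WT, above the ratio of 7.77 for Ctss. Against Cd68, a membrane protein of lysosomes in macrophages, the difference in LRP1 KO was nearly the same in each library, at 0.42, 0.56, 0.46 and 0.53 log2 units, and in WT it was -0.74 to -0.19.

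**Figure D4:**
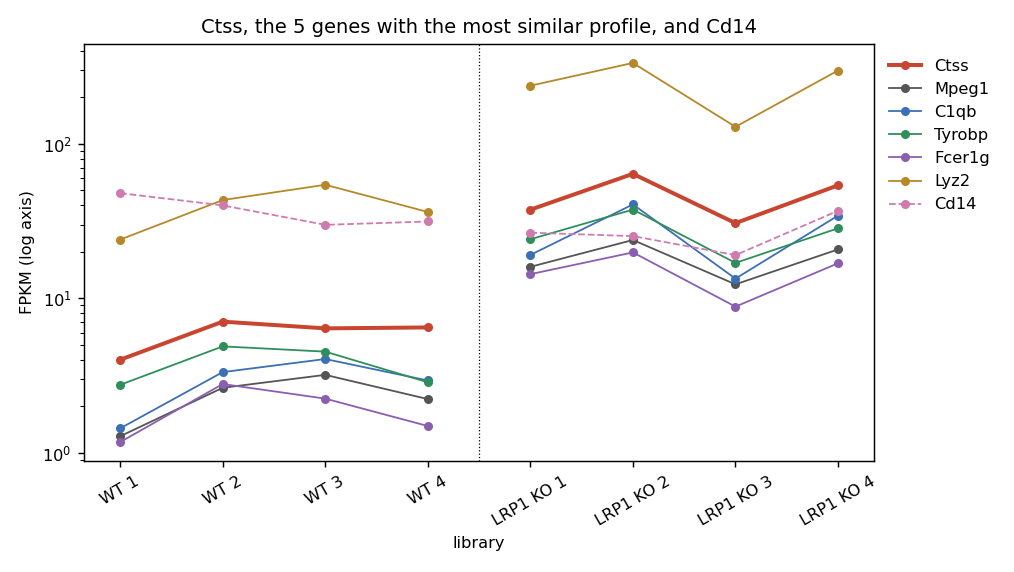
FPKM (log axis) of Ctss, of the 5 genes with the most similar profile and of Cd14 in the 4 WT and 4 LRP1 KO libraries, where lines only join the values of a gene within a group. Ctss and its 5 nearest genes share the order of LRP1 KO libraries 2, 4, 1 and 3 and lie above WT throughout, while Cd14 does not. The 5 genes were picked for their likeness to Ctss in these same libraries, so their shared course is no separate support.

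Ctsa, whose product also protects the lysosomal enzymes NEU1 and GLB1 in a complex, fell. In replicate order it measured 388, 500.4, 435 and 421 FPKM (WT) and 324, 329.9, 324 and 377 FPKM (LRP1 KO), without overlap. The mean fell from 436 ± 47.1 to 339 ± 25.7 FPKM (SD, n = 4 each), to 77.6% of WT. On the log2 scale the change was -0.36 (95% interval -0.55 to -0.17, limma adjusted p 0.0281). That call was narrow, since 9 of the 16 alternatives lost it, including the removal of any 1 library other than WT library 1 and LRP1 KO library 4 (adjusted p from 0.00824 to 0.442 over all alternatives). The estimate ran from -0.415 to -0.293 with 1 library left out. With the macrophage and endothelial covariates it was -0.66 and -0.25. The partners Neu1 and Glb1 had estimates of -0.16 and -0.22 and did not pass (limma adjusted p 0.216 and 0.0617).

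Reads of Ctsa may also be shared with its neighbours. The gene (ENSMUSG00000017760, chr2:164832873-164841032, plus strand) overlaps Neurl2 and Pltp on the opposite strand, and whether the quantification used strand is not given in the sources used here. Neurl2 fell from 7.03 ± 0.984 to 3.95 ± 1.17 FPKM (SD, n = 4 each; limma adjusted p 0.0263) and Pltp had an estimate of -0.15 (adjusted p 0.411). Both were far below Ctsa.

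The most abundant cathepsins, Ctsl and Ctsd, did not pass. Ctsl, a broad endopeptidase, measured 850.2, 1198, 1006 and 882 FPKM (WT) and 1006, 1055, 973 and 964 FPKM (LRP1 KO). All LRP1 KO values lay within the WT range, and the estimate was 0.03 (95% interval -0.20 to 0.27, limma adjusted p 0.842). Ctsd, the aspartic cathepsin, measured 882, 1105, 997 and 940.5 FPKM (WT) and 1117, 1183, 1105 and 1105 FPKM (LRP1 KO). No LRP1 KO value was below the highest WT value, with 1 shared value of 1105, and the estimate was 0.20 (95% interval 0.04 to 0.37, limma adjusted p 0.0946). Quantile normalization takes all libraries to nearly the same set of values, so a value can recur between libraries. Of all stretches of 50 bases in the longest Ctsd transcript, 36.6% also occur in the overlapping gene Gm49369, and 6.90% of those of Ctsl occur in transcripts of other genes, most often the pseudogene Gm49230, so a part of their reads could be split.

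Ctsh, an aminopeptidase, had a higher mean in LRP1 KO but did not pass. It measured 31.6, 32.3, 33.9 and 34.3 FPKM (WT) and 41.5, 53.3, 34.3 and 41.6 FPKM (LRP1 KO). The groups did not overlap, but LRP1 KO library 3 (34.33 FPKM) was barely above the highest WT library (34.32 FPKM). The means were 33.0 ± 1.30 FPKM (WT) and 42.7 ± 7.85 FPKM (LRP1 KO; SD, n = 4 each), with an estimate of 0.34 (95% interval 0.09 to 0.60, limma adjusted p 0.0703). Without LRP1 KO library 3 the estimate was 0.44 and passed (adjusted p 0.0424; its alternatives gave 0.0424 to 0.439). With the macrophage genes as a covariate it was -0.28.

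Ctsb, which trims proteins as an endopeptidase and dipeptidase, measured 276, 329.9, 316 and 267 FPKM (WT) and 341, 379, 307 and 359 FPKM (LRP1 KO). In 3 of 4 LRP1 KO libraries it was above all WT libraries, and the estimate was 0.22 (95% interval 0.02 to 0.42, limma adjusted p 0.118). Ctsz, a carboxypeptidase also known as cathepsin X, was at 287 to 334 FPKM in WT and 257 to 288 FPKM in LRP1 KO, with an estimate of -0.15 (95% interval -0.30 to 0.00346, limma adjusted p 0.156). Both overlap a gene on the opposite strand. Fdft1, beside Ctsb, fell from 38.8 ± 8.29 to 22.3 ± 4.16 FPKM (SD, n = 4 each; limma adjusted p 0.0211), and Nelfcd, beside Ctsz, had an estimate of -0.06 (adjusted p 0.575). Like Ctss and the macrophage genes, Ctsb and Ctsh were highest in LRP1 KO library 2 and lowest in library 3. No share of all tested genes was determined for that order, so no link is read from it here either.

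Ctsk, Ctsc and Ctso had lower means in LRP1 KO but did not pass. Ctsk measured 65.5, 80.4, 89.6 and 88.5 FPKM (WT) and 40.3, 72.5, 51.2 and 78.6 FPKM (LRP1 KO), where libraries 1 and 3 lay below all WT libraries and libraries 2 and 4 within their range. Its estimate was -0.45 (95% interval -0.90 to -0.00109, limma adjusted p 0.147). Ctso, a little-studied cysteine cathepsin, measured 16.9, 17.1, 15.1 and 15.6 FPKM (WT) and 10.3, 12.8, 10.3 and 15.3 FPKM (LRP1 KO). There 3 of 4 libraries were below all WT libraries, and the estimate was -0.40 (95% interval -0.66 to -0.13, limma adjusted p 0.0539). Ctsc, which activates the serine proteases of granules in leukocytes, measured 55.1, 69.1, 91.6 and 88.0 FPKM (WT) and 45.2, 69.0, 63.1 and 80.5 FPKM (LRP1 KO), with an estimate of -0.24 (95% interval -0.68 to 0.21, limma adjusted p 0.429).

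As for Ctsa and Ctsz, LRP1 KO library 4 was the highest of its group for all 3 genes. Without it the estimates were -0.59 for Ctsk (adjusted p 0.0465; its alternatives gave 0.0465 to 0.983), -0.51 for Ctso (adjusted p 0.00529; alternatives 0.00529 to 0.755) and -0.35 for Ctsc (adjusted p 0.217). In that fit 4 of the 10 cathepsins passed, namely Ctss, Ctsa, Ctsk and Ctso, where 26.2% of all 11297 tested genes passed. Leaving out LRP1 KO library 1 instead brought the estimates nearer to no change. They were then -0.27 for Ctsk, -0.33 for Ctso and -0.08 for Ctsc, and none of the 3 passed (limma adjusted p 0.319, 0.142 and 0.808). With the endothelial genes as a covariate the estimate was 0.02 for Ctsk, 0.14 for Ctsc and -0.11 for Ctso. With the macrophage genes as a covariate it was -1.53, -0.98 and -0.92 for these genes, and none of the 3 passed.

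Of the 12 fibroblast genes, 8 had the same order of LRP1 KO libraries as Ctsk, Ctsc and Ctsz (4, 2, 3 and 1). That order was shared by 8.67% of all 11389 tested genes. Among the other fibroblast genes Postn, a matrix protein gene, rose to 201% of WT and Thy1 fell to 69.0% (limma adjusted p 0.0297). Fn1, the fibronectin gene, was at 104% and Lum at 85.2%. By group mean the 8 ran from 29.2% of WT (Dpt) to 97.7% (Col3a1), with Col1a1 at 94.3% and the receptor gene Pdgfra at 53.0%. In that order of libraries Pdgfra was at 85.9%, 52.8%, 41.1% and 32.4% of its WT mean. Ctsk in the same libraries was at 97.1%, 89.5%, 63.2% and 49.7% of its WT mean. Of the 20 endothelial genes, 15 had the opposite order (8.63% of all tested genes), and Vwf, Flt1, Kdr, Tek and Stab2 did not. The first principal component ranked the LRP1 KO libraries in that order too, so neither order is particular to these lists. Cdh5, 1 of the 15, was at 89.3%, 224%, 354% and 493% of its WT mean. The part of this mixture in the values of Ctsk, Ctsc and Ctso was not tested beyond the covariates.

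**Figure D5:**
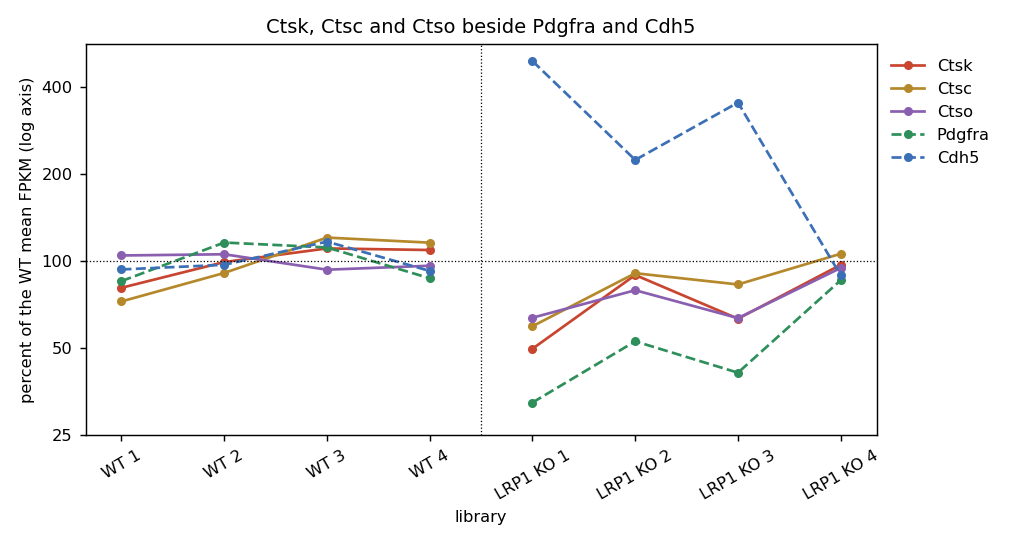
Level of Ctsk, Ctsc and Ctso (solid) and of Pdgfra and Cdh5 (dashed) in each library, as percent of the WT mean FPKM of that gene on a log axis, where lines only join values within a group. In LRP1 KO library 4 all 5 genes lie between 85.9% and 106%, and in LRP1 KO library 1 Ctsk is at 49.7% and Cdh5 at 493%.

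The proteins that restrain cathepsins were examined as a list of 12 genes, of which 7 were tested. Here 2 rose, 1 fell and 4 did not pass, where 6.27% of all tested genes were higher and 7.31% lower, while 4 of the untested ones were listed at 0 in every library. Cst3, the secreted inhibitor cystatin C, was nearly as abundant as the leading cathepsins and fell by 0.50 on the log2 scale (limma adjusted p 0.0135). Its means were 829 ± 74.1 FPKM (WT) and 587 ± 67.0 FPKM (LRP1 KO; SD, n = 4 each). All LRP1 KO libraries, at 522 to 676 FPKM, were below all WT libraries, at 738 to 919 FPKM. Ctla2b, which resembles the propeptide of a cathepsin, rose by 1.07 (limma adjusted p 0.00965), from 20.3 ± 2.73 to 44.9 ± 12.3 FPKM. Its close relative Ctla2a was at 669 to 812 FPKM in WT and 611 to 1031 FPKM in LRP1 KO (estimate 0.10, adjusted p 0.669), and reads may be shared between such relatives. Cst3 and Ctla2b lost their call only with the macrophage or endothelial covariate among the 16 alternatives (adjusted p from 0.00222 to 0.233 and from 0.000639 to 0.114). Serpinb6a, an intracellular serpin, rose by 0.32 (limma adjusted p 0.0493) but stood within the WT range in LRP1 KO library 4 and kept its call in 4 of 16 alternatives (adjusted p from 0.000814 to 0.705). Cstb, the intracellular stefin B, had an estimate of 0.23 and did not pass (adjusted p 0.0603).

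Of 11 genes that tag and carry enzymes to the lysosome, all tested, 1 rose, 3 fell and 7 did not pass, again beside 6.27% higher and 7.31% lower over all tested genes. Igf2r, the large mannose 6-phosphate receptor, rose from 10.6 ± 0.920 to 13.4 ± 1.29 FPKM (SD, n = 4 each; log2 change 0.31, limma adjusted p 0.0443). Gga2, an adaptor that sorts these receptors at the Golgi, fell by 0.35 (adjusted p 0.00954), the sorting receptor Sort1 fell by 0.32 (adjusted p 0.0442) and Gnptg, a subunit of the enzyme that adds the tag, fell by 0.25 (adjusted p 0.0468). Gga2 kept its call in 14 of 16 alternatives (adjusted p from 0.00417 to 0.230), while Igf2r, Sort1 and Gnptg kept theirs in 5, 4 and 4 (adjusted p up to 0.628, 0.581 and 0.513). The smaller receptor M6pr was at 54.1 to 59.6 FPKM in WT and 56.0 to 58.8 FPKM in LRP1 KO.

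Of 19 other lysosomal genes and regulators, all tested, 1 rose, 0 fell and 18 did not pass by limma, where 13.6% of all tested genes passed, at a median log2 fold change of -0.00236 (2 higher and 2 lower at an unadjusted p under 0.05). The one that rose was Asah1, acid ceramidase, from 90.3 ± 11.8 to 129 ± 13.2 FPKM (SD, n = 4 each; log2 change 0.51, limma adjusted p 0.0164). It kept its call in 12 of 16 alternatives (adjusted p from 0.00853 to 0.287), losing it with both covariates, without WT library 2 and without LRP1 KO library 1. Tfeb, Tfe3 and Mitf, which drive lysosomal genes through the element above, did not pass (adjusted p 0.183, 0.991 and 0.527). Among 7 other lysosomal proteases 5 were tested and 0 passed by limma (0 at an unadjusted p under 0.05), with estimates from -0.28 for the asparaginyl endopeptidase Lgmn to 0.03. Napsa was too low to be tested, at 0.0248 to 0.158 FPKM in WT and 0.356 to 1.13 FPKM in LRP1 KO, without overlap. Of 4 further cathepsins, Ctsf was tested and did not pass (estimate -0.18, adjusted p 0.243), and Ctse, Ctsg and Ctsw were at 0.292 FPKM or less in every library.

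The last lists held the invariant chain and MHC class II genes, and granule proteases activated by cathepsin C. Cd74, which encodes the invariant chain cut by cathepsin S, was at 0.164 to 0.373 FPKM in WT and 0.126 to 0.591 FPKM in LRP1 KO, and of 7 genes of the invariant chain and MHC class II list 2 were tested and 0 passed by limma (0 at an unadjusted p under 0.05). The MHC class II genes H2-Aa, H2-Ab1 and H2-Eb1 were at most 1.66 FPKM in any library. The 2 tested genes, H2-DMa and H2-DMb1, encode the chaperone that loads peptides on class II molecules. They were at 2.26 to 2.65 and 10.8 to 15.2 FPKM in LRP1 KO, with estimates of 0.13 and -0.26 (limma adjusted p 0.426 and 0.220). Of the granule proteases activated by cathepsin C, Gzma and Gzmb were listed at 0 in every library and Elane and Prtn3 reached at most 0.416 FPKM. Markers of lymphocytes were at most 0.268 FPKM in any library. Of 8 neutrophil genes only S100a8 passed the filter, and it did so only through LRP1 KO, so no change is read from it. It read 0.382 to 1.48 FPKM in WT and 1.11 to 3.53 FPKM in LRP1 KO, with overlap, while S100a9 and Ly6g were listed at 0.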

How the data were processed

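The deposited table held 1 value per gene and library for 8 libraries. The submitters' processing notes name TopHat2, Cufflinks and mm10, while the study's methods name a different aligner and counter. The values were read as FPKM that the authors had quantile normalized, a unit and a scaling inferred from those tools and from the values (sorted values differing by a median of 0.574% between libraries, sums of 503571 to 504112 per library), and they hold no read depth. Groups came from the labels. Genes at 1 FPKM or more in at least 4 libraries were tested (11389 genes) on log2(FPKM + 1) with limma 3.58.1 (R 4.3.3, variance trend), LRP1 KO against WT, with Benjamini-Hochberg adjustment over all tested genes and a threshold of 0.05. Fold changes on this scale understate those of low genes. Single ratios were compared with exact two-sided permutation tests (scipy 1.17.1). Checked on 5 simulated tables of 11257 genes for this comparison, the fit recovered 93.9% of genes changed by 1 log2 unit and 99.2% of those changed by 2. The simulated noise was independent between genes, unlike that of these libraries, and smaller changes were not simulated. The check therefore does not bear on the cathepsins that did not pass.

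All 10 cathepsins were to be described, with the 5 genes nearest to Ctss by profile, the called members of the lists and defining markers. Members and lists were chosen with earlier results of these data known. Gene positions are from GENCODE M21 (21740 of 22520 identifiers matched) and start-site sequences from RefSeq (GRCm38.p6), a build equivalent to mm10. Alternatives changed the pseudocount, the filter, the scaling and the variance trend, added a replicate block or a covariate, or left out 1 library. The table holds no fragment counts, so no count model was used. The separate values of 1 macrophage gene are not reported here.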

Additional observations from a re-analysis of the deposited data

Results flagged for a closer look

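A single library stood far from the other 3 of its group for 2 genes, both in LRP1 KO. Ctsa was at 377 FPKM in library 4 against 324, 329.9 and 324 FPKM in the others, and Ctsd was at 1183 FPKM in library 2 against 1117, 1105 and 1105 FPKM. The gap to the nearest library took up 0.887 of the whole range for Ctsa and 0.852 for Ctsd, above Dixon's 95% critical value for 4 samples. Among the 20 groups examined (10 genes in 2 groups), chance flags about 1 in 20. Repeated values among the other libraries narrow the rest of the range in both cases. Without library 4 the estimate for Ctsa was -0.41 (limma adjusted p 0.00824, the lowest of its alternatives, which reached 0.442).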

How the results depend on the processing

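Of the cathepsin fold changes under the 16 alternatives, 138 kept their direction and side of the threshold, 10 lost and 3 gained a call, and 9 changed sign. Cathepsins called numbered 2, against 1 without the filter, 0 with the macrophage covariate, 1 with the endothelial covariate and 1 to 4 when 1 library was left out. Genes called numbered 1547, against 1013 with the replicate block, 8 and 175 with the macrophage and endothelial covariates and 433 to 2959 without 1 library (2959 without LRP1 KO library 4; 502 without WT library 2; 478, 433 and 468 without LRP1 KO libraries 1, 2 and 3; 841, 914 and 989 without WT libraries 1, 3 and 4). At 2-fold or more, 184 became 113 under the stricter filter, 8 and 96 with the covariates and 113 to 312 without 1 library. The macrophage score separated the groups, so that covariate and the genotype cannot be told apart, and the median standard error went from 0.0880 to 0.225. With it Ctsb was at -0.26, Ctsd at -0.0165, Ctsh at -0.28 and Ctsl at -0.26. With the endothelial covariate Ctsc was at 0.14, Ctsk at 0.0187 and Ctsl at -0.00337. Leaving out 1 library gave Ctsl from -0.0312 (without WT library 1) to 0.134, and it was also below 0 without WT library 4. Of the Ctss ratios under alternatives, 213 kept their direction and side of the threshold and 7 changed sign. Ctss minus Laptm5 was -0.0674 with a pseudocount of 0.1, Ctss minus Lyz2 ran from -0.00708 to 0.216 without 1 library and Ctss minus C1qb from -0.114 to 0.0537. The cause of these changes was not tested. Residuals of same-numbered libraries correlated at 0.158, 0.141 and 0.340 for numbers 1 to 3 and at -0.312 for number 4, so not all pairs deviated together and the numbers were not taken as a pairing. With the replicate block 2 cathepsins passed (Ctsa, adjusted p 0.0491, and Ctss, 0.00562). Rescaling by median ratio gave 825 higher and 743 lower calls against 714 and 833. Depth is unknown, so values near 0 cannot be given a limit.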
